A study of Mus musculus with 14 samples.

Results

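When crosslinked and sonicated cells of the adult mouse testis were spun for the first time, the RNA left in solution (the supernatant) and the RNA that went down (the first pellet) were each sequenced as 1 library. The members of the comparison were the gene symbols of the deposited joint table whose mean level over both libraries was at least 5 FPKM (fragments per kilobase of transcript, scaled to the mapped fragments of the library) and whose level was above 0 in both. This rule kept 8187 of 21905 features with a gene symbol, out of 27024 features in all. The level that chose them is a mean over both libraries, so it did not fix a direction. For each member the log2 ratio of (FPKM + 1), first pellet over supernatant, was taken, and the median of all members, 0.12, was subtracted. This centred log2 ratio is the quantity compared throughout.

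All animals were C57BL/6 mice at least 6 weeks old, and the labels name no treatment, allele or number of animals for these libraries. Cells dissociated from the seminiferous tubules with collagenase were fixed with formaldehyde, taken up in RIPA detergent buffer, sonicated and spun. The first pellet was sonicated again, filtered and spun to give a second pellet, from which granules were taken with antibodies to MVH, the DEAD-box helicase that Ddx4 encodes. The series holds 14 libraries in 9 groups, and 4 of them, the lysate, the supernatant, the first pellet and the second pellet, are used here with 1 library and 1 value per feature each.

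The study purified the chromatoid body, a cytoplasmic granule beside the nucleus of round spermatids that holds MVH, the PIWI protein MIWI, piRNAs and mRNAs. Detergent-soluble material such as free polysomes and many organelles stays in solution after fixation and sonication, while granules, fixed chromatin and other large structures can be spun down. Small nucleolar RNAs (snoRNAs) reside in the nucleolus, where C/D box snoRNAs guide methylation and H/ACA snoRNAs guide pseudouridylation of ribosomal RNA, and most are cut out of the introns of host genes.

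Each product has 1 library, so no difference below has a replicate check, a standard deviation or a test of its own. A member is called higher or lower where it differed from the median member by 2-fold or more (a centred log2 ratio of at least 1 or at most -1), which is a rule of size. The depth of the libraries is not given, and no counting interval could be computed. The summed levels of cell type markers in supernatant and first pellet were 39686 and 25351 FPKM for 7 spermatid genes, 247 and 142 FPKM for 4 spermatocyte genes, and 32.7 and 16.2 FPKM for 5 spermatogonial genes. The spermatid sum was the largest, and that of 7 Leydig cell genes (297 and 150 FPKM) lay above the spermatocyte sum. Levels of the lysate followed those of the supernatant (Spearman's rho 0.98 across the 8187 members) more closely than those of the first pellet (rho 0.80). These values share the joint scaling, and the lysate holds the material of both products.

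The first pellet was higher for 1455 members (17.8%) and lower for 1011 (12.3%). Without centring 1667 were higher and 746 lower, and with the members outside small RNA genes scaled to 1 sum 1252 and 1264, so the balance of the directions depends on the scaling. Those sums were 420052 FPKM in the supernatant and 497049 FPKM in the first pellet. The locus AF357355, with no transcript matched to it, gave 2647 and 103366 FPKM of them. This scaling thus rests in part on 1 locus, and it was not repeated without AF357355. A share of 44.9% of the members lay within 1.5-fold of the median. Among 103 small RNA genes, taken by their symbols, 86 stood higher and 5 lower, and the other 8084 members gave 1369 higher and 1006 lower. At 4-fold or more the other members split into 282 higher and 48 lower, so large differences lay mostly on the side of the pellet. Small RNA genes made up 83.8% of the members' summed FPKM in the supernatant and 98.3% in the first pellet. The authors' deposited table calls 318 members higher in the first pellet at q under 0.05 (3.88%), 49 of them small RNA genes, and 12 lower (0.147%). The members just inside the minimum level were Mucl1 and Agk, each at a mean of 5.00 FPKM. Just outside it were 4732471J01Rik and Vwf, each at a mean of 4.99 FPKM. A mean of at least 5 FPKM was reached by 8245 symbols, of which 33 were listed at 0 in the first pellet and 25 in the supernatant, which can be a failed estimate, and they were given no ratio.

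**Figure D1:**
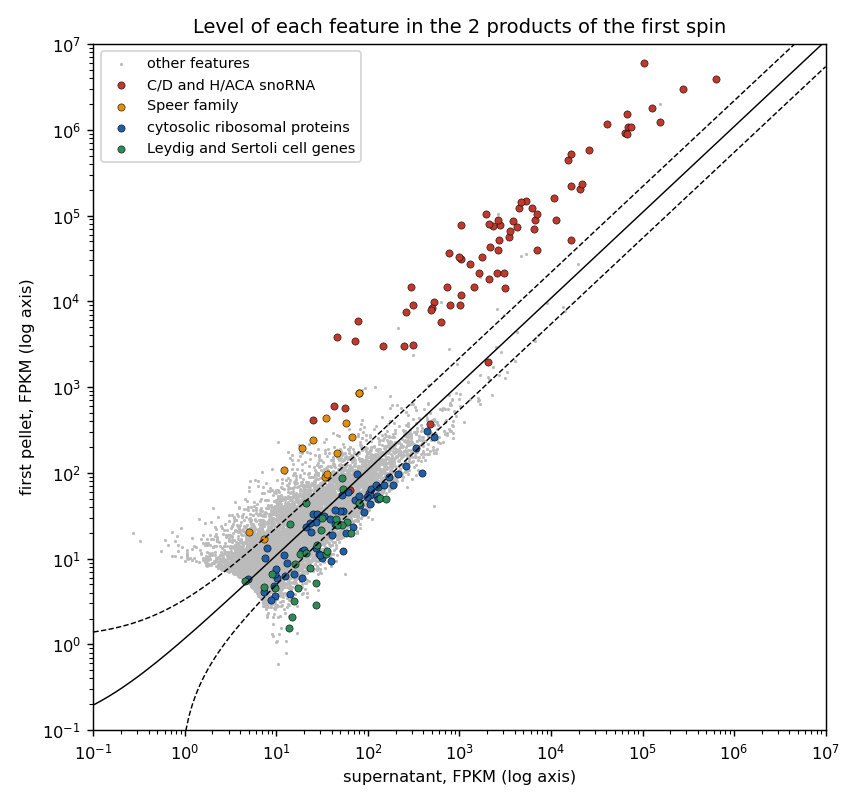
FPKM in the first pellet (vertical, log axis) against FPKM in the supernatant (horizontal, log axis), 1 point per member, with 5 members under 0.1 FPKM in 1 library lying outside the axes. The solid line marks the median ratio and the dashed lines 2-fold above and below it. The C/D and H/ACA snoRNAs lie above the upper line apart from 3 of them, and most ribosomal protein, Leydig and Sertoli cell genes lie below the solid line.

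The snoRNAs were the group with the largest differences. Of 52 C/D box members (symbols beginning with Snord) 51 were higher in the first pellet and 0 lower, with a median centred log2 ratio of 4.10, which is 17.1-fold. Of 23 H/ACA members (Snora) 21 were higher and 0 lower (median 3.58, which is 11.9-fold). A further 6 Snord and 8 Snora genes above the minimum level were listed at 0 in the supernatant with values in the first pellet, such as Snord68 at 15842 FPKM and Snord19 at 11707 FPKM. No snoRNA gene above the minimum level was listed at 0 in the first pellet. The authors' deposited table calls 38 of the 52 and 8 of the 23 higher.

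Their sequences are shown because the C/D and H/ACA classes are defined by short boxes near their ends, and 1 member of the first class was not higher. The sequences are those of GENCODE M21 on GRCm38, matched by symbol and written 5′ to 3′ on the strand given. Capitals mark the first TGATGA (the C box core) within 20 bases of the 5′ end and the last CTGA (the D box) within 20 bases of the 3′ end of C/D RNAs, and the ACA that ends 3 bases before the 3′ end of H/ACA RNAs. Snord7 (chr11:83294304-83294400, plus strand), Snord61 (chrX:57391449-57391519, minus strand), Snord17 (chr2:144265979-144266216, minus strand) and Snord49a (chr11:62603450-62603521, plus strand) were among the higher C/D RNAs. Snord42a (chr11:78181299-78181363, minus strand) was the only C/D member that was not higher. Snora23 (chr7:110046364-110046547, plus strand) and Snora26 (chr5:74093530-74093650, plus strand) were the H/ACA members with the largest ratios. Snord17 and Snord49a lie outside the rule for named genes and were chosen after their values were seen.
Snord7: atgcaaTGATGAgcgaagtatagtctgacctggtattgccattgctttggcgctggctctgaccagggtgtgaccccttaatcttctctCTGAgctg
Snord61: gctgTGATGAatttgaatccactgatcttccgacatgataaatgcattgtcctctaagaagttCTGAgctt
Snord17: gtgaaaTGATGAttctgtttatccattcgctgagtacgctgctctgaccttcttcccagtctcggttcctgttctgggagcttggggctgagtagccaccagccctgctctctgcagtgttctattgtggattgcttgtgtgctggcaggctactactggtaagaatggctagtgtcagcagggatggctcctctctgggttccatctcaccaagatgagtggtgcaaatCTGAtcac
Snord49a: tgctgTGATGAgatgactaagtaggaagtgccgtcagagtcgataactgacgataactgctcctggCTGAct
Snord42a: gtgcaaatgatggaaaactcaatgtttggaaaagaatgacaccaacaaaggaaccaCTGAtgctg
Snora23: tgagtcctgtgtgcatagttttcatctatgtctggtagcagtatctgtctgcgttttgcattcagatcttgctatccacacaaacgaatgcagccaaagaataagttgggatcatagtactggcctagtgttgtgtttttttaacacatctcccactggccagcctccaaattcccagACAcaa
Snora26: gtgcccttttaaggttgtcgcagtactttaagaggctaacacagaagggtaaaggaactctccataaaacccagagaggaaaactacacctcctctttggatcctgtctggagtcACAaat

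Of the 52 C/D members, 34 held TGATGA and 51 held CTGA in these windows on the transcribed strand, and 33 (63.5%) held both, against 69.1% of all 97 Snord genes of the annotation. Of the 23 H/ACA members 18 had ACA at that place, against 82.5% of all 40 Snora genes. The letters searched are a description of these windows, and nothing is drawn from a missing match. The C/D members are 64 to 238 bases long and the H/ACA members 121 to 196 bases. Library products were cut from a gel at 350 to 500 bp, so the FPKM of genes this short is poorly defined as a level, and the levels and summed shares of small RNA genes given here carry that limit.

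Snord61, a C/D RNA in the Rbmx gene, stood at 1036 FPKM in the supernatant and 76562.5 FPKM in the first pellet, a centred log2 ratio of 6.09. The lysate stood at 3452 FPKM and the second pellet at 43174 FPKM. Both pellets were thus high, and the lysate lay nearer the supernatant. Snord17 went from 296 to 14509 FPKM (5.49) and Snord49a from 2645 to 89051 FPKM (4.95). Snord7 went from 77.1 to 5945 FPKM (6.13), but the authors' deposited table marks it as having too little data for a test, as it does Snora26, with 72.2 and 3449 FPKM (5.44). Snora23 had 45.5 FPKM in the supernatant and 3823 FPKM in the first pellet (6.24), the largest ratio of all members, with q = 0.00131 in the authors' deposited table. The highest level of any C/D RNA was that of Snord58b, in the host gene Rpl17, with 104622 FPKM in the supernatant and 6024400.0 FPKM in the first pellet (5.73). Snord34, in the host Rpl13a, was the C/D RNA with the next highest mean, at 632275 and 3919200.0 FPKM (2.51). At the other end Snord65 had 16502 and 51335 FPKM (1.52), and Snord42a had 2026 and 1951 FPKM (-0.18). Snord42a was listed at 0 in the lysate and at 19093 FPKM in the second pellet. The lysate holds the material of the supernatant, so the level of Snord42a is uncertain. Snora64, with 472 and 372 FPKM (-0.47), and Snora70, with 63.8 and 63.9 FPKM (-0.12), were the H/ACA members that were neither higher nor lower. Without the members marked as having too little data, 50 of 51 C/D and 19 of 21 H/ACA RNAs were higher.

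Small Cajal body RNAs, which guide modification of spliceosomal RNAs in a neighbouring nuclear body, differed in the same direction with more spread. Of 8 members (Scarna) 6 were higher and 1 lower (median 2.22). Scarna9 stood at 154556 FPKM in the supernatant and 2021780.0 FPKM in the first pellet (3.59), and Scarna6 at 10.5 and 230.0 FPKM (4.21). Scarna3a was the lower one, with 407 and 167 FPKM (-1.40), and Scarna8 lay between with 326 and 583 FPKM (0.72).

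Other small noncoding RNAs did not share the pattern of the snoRNAs. Of 7 spliceosomal, RNase, vault and related RNAs 1 was higher and 0 lower, and their median was -0.04, or 0.09 without centring. The higher one was Rmrp, the RNA of RNase MRP, a nucleolar enzyme of ribosomal RNA maturation, at 2587 FPKM in the supernatant and 8114 FPKM in the first pellet (1.53). Rpph1, the RNA of the related RNase P, which matures tRNAs, stood at 2324 and 1711 FPKM (-0.56). The minor spliceosome RNAs Rnu11 and Rnu12 stood at 19598 and 26963 FPKM (0.34) and at 8961 and 9512 FPKM (-0.04). The levels of these RNAs in the supernatant were thus close to those in the pellet, Rmrp apart.

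Features named for microRNA genes scattered in both directions, with 7 of 13 higher, 4 lower and a median of 1.03. Mir3096 stood at 213 and 4872 FPKM (4.39) and Mir677 at 635 and 9875 FPKM (3.84), while Mir682 stood at 532 and 41.2 FPKM (-3.78) and Mir344d-2 at 404 and 99.4 FPKM (-2.13). Mature microRNAs are far shorter than the library products, so these values describe reads over the loci. A further 37 such loci above the minimum level were listed at 0 in 1 of the libraries, 29 in the first pellet and 8 in the supernatant. With them kept the median of the 50 loci was -5.36, so the direction of this list depends on the values at 0.

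Genes that hold snoRNAs in their introns did not follow them. Of 83 snoRNA and Cajal body RNA members, 52 lie in 41 host genes that are members themselves. The median centred log2 ratio of these small RNAs was 3.97 and that of their hosts 0.04, and the small RNA was above its host in 51 of 52 cases. The exception was Scarna3a in Rfwd2. Hosts ranged from -1.48 to 2.57, with 5 higher and 9 lower. In the 10 ribosomal protein hosts the 14 snoRNAs had a median of 3.62 and the hosts a median of -1.13, with 6 hosts lower and 0 higher. Small RNAs of 1 host share that host, so the 52 pairs are not independent.

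Rpl13a, which encodes a ribosomal protein, holds 4 C/D members and differed from all of them. Its own level was 53.7 FPKM in the supernatant and 36.0 FPKM in the first pellet (-0.68), while Snord33 went from 4699 to 143175 FPKM (4.81) and Snord35a from 3459 to 55940.1 FPKM (3.89). Snord32a, at 20815 and 201682 FPKM (3.16), was also higher. Rpl13a and its snoRNAs were named for this contrast after their values were seen.

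**Figure D2:**
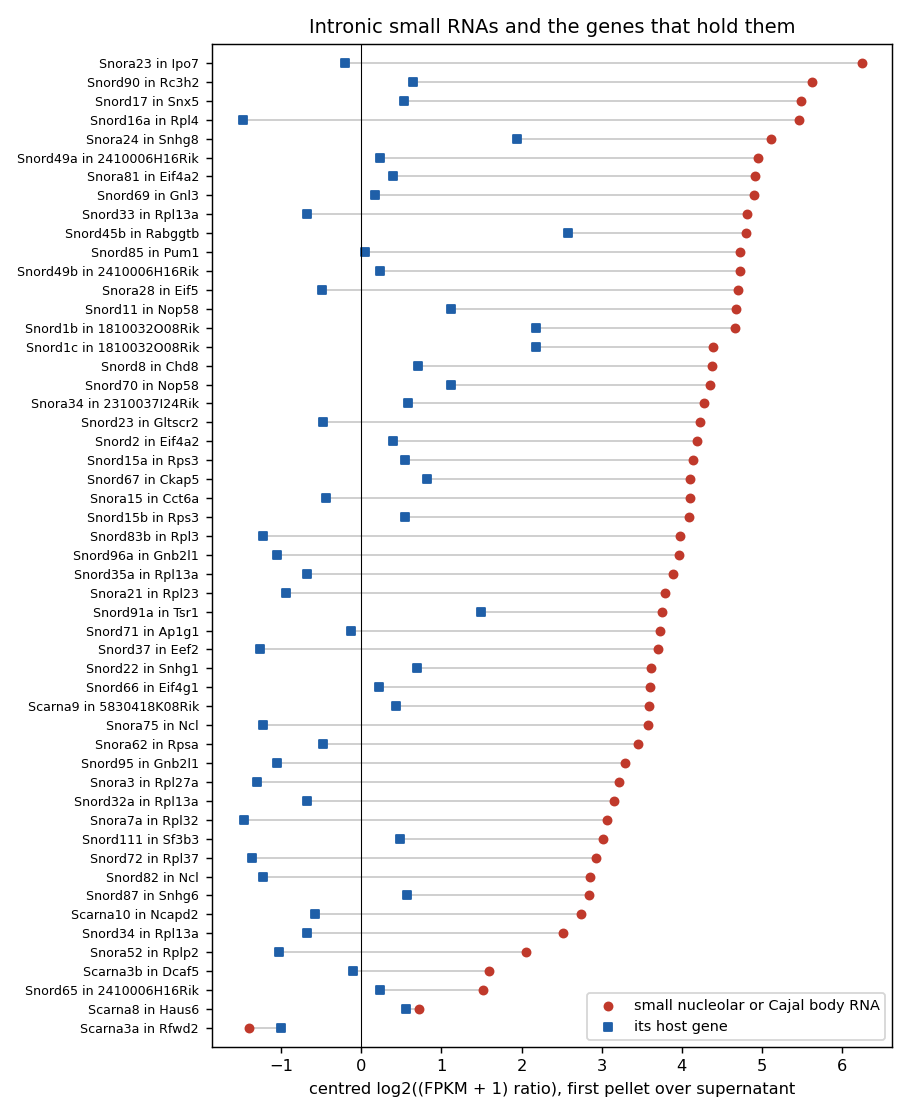
Centred log2 ratio (horizontal) of 52 snoRNAs and Cajal body RNAs (red circles) and of the member gene whose intron holds each (blue squares), 1 row per pair. Apart from Scarna3a in Rfwd2, every circle lies to the right of its square, and the hosts spread around 0.

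On a list of 18 well-known host genes 3 (16.7%) were higher and 4 (22.2%) lower (median -0.05, or 0.07 without centring). Of all members 17.8% were higher and 12.3% lower, so the share of higher hosts was near that of all members. The higher ones were the noncoding hosts Gas5, Snhg8 and Snhg9, while the noncoding hosts Snhg1 (0.70), Snhg3 (0.81) and Snhg6 (0.57) were neither higher nor lower. Gas5 (chr1:162965297-162968668, mm9), which holds many C/D RNAs, stood at 14.8 FPKM in the supernatant, 21.7 in the lysate, 162 in the first pellet and 112 in the second pellet. Its centred log2 ratio of 3.25 had q = 9.76e-07 in the authors' deposited table. Snhg8 stood at 15.6 and 68.0 FPKM (1.94) and Snhg9 at 55.6 and 171 FPKM (1.48). The transcript matched to Snhg9 has only 183 bases, a length at which FPKM is poorly defined as a level. Coding hosts outside this list were also higher, such as Rabggtb, of Rab protein lipid modification, at 6.78 and 49.4 FPKM (2.57), chosen after its values were seen. The lower ones were coding genes, among them the elongation factor gene Eef2, at 258 and 116 FPKM (-1.26), and Hspa8, a heat shock protein gene, at 95.4 and 41.1 FPKM (-1.32).

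The long noncoding RNAs Neat1 and Malat1, neighbours on chromosome 19 that reside in nuclear paraspeckles and speckles, went in opposite directions. Neat1 (chr19:5842302-5845478, mm9) stood at 70.2 FPKM in the supernatant and 147 FPKM in the first pellet (0.94), just under 2-fold, and at 242 FPKM in the second pellet. Malat1 (chr19:5795690-5802671, mm9) stood at 698 and 394 FPKM (-0.94), and at 679 FPKM in the second pellet. These abundant nuclear RNAs thus lay on opposite sides of the median. The other 2 members of the list of 4, Gm12238, with 311 and 2338 FPKM (2.79), and 5430416N02Rik, with 14.9 and 111 FPKM (2.70), were higher, and the list's median was 1.82. The transcript matched to Gm12238 has only 124 bases, a length at which FPKM is poorly defined as a level. With a minimum of 1 FPKM the list had 9 members and a median of -0.070, and with no minimum 11 members and -0.042.

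Outside the lists of small RNA genes, which go by symbol, the 10 largest ratios among members with at least 1 FPKM in both libraries were those of AF357355, Srgn, Cytl1, Zfp87, Gip, Speer4f, Gm52, 1110017F19Rik, Ifrd1 and Gm4922. AF357355 stood at 2647 FPKM in the supernatant and 103366 FPKM in the first pellet (5.17), inside a merged locus on chromosome 12, with no transcript matched to it. Its symbol places it in none of those lists, so whether AF357355 is a small RNA was not settled here. Srgn, which encodes the granule proteoglycan serglycin, stood at 2.00 and 38.7 FPKM (3.61). Cytl1, a secreted cytokine-like protein gene, stood at 5.18 and 80.0 FPKM (3.59). In the supernatant 8 of the 10 were under 14 FPKM, where the median of all members was 17.0 FPKM. Choosing genes by this ratio favours low values in the supernatant, so nothing is drawn from that count.

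Zfp87, a zinc finger gene, stood at 6.98 FPKM in the supernatant and 102 FPKM in the first pellet (3.56), with q = 3.91e-06 in the authors' deposited table. Ifrd1, a transcriptional co-regulator gene, stood at 5.04 and 67.5 FPKM (3.38). Gip, the gene of a gut hormone, stood at 1.41 and 29.0 FPKM (3.51), or 4.23 on the log2 scale without the added 1. Adam23, which encodes a membrane protein of the ADAM family without protease activity, stood at 13.9 FPKM in the supernatant, 148 in the first pellet and 256 in the second pellet. Its centred log2 ratio was 3.20, with q = 7.57e-07 in the authors' deposited table. Adam23 was thus low in the supernatant and high in both pellets.

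The Speer genes, a rodent family of testis-expressed glutamate-rich proteins clustered on chromosome 5, stood together above the median. Of 13 members 12 were higher and 0 lower (median 2.59). Speer4f (chr5:16981940-16986754, mm9) stood at 34.4 FPKM in the supernatant, 54.3 in the lysate, 434 in the first pellet and 387 in the second pellet, a centred log2 ratio of 3.50. Speer4d, with 79.7 and 852 FPKM, and Speer4e, with 80.0 and 854 FPKM, had nearly the same values (3.28 each), and near-identical copies of this family cannot be told apart by reads they share. Speer4d, Speer4e and Speer4f had q-values of 4.68e-08, 4.35e-08 and 1.18e-07 in the authors' deposited table. With multicopy genes of the X and Y chromosomes the list had 19 members, of which 15 were higher and 0 lower (median 1.71). The spermatid gene Slxl1 of the X chromosome was among those that were not, at 55.0 and 72.4 FPKM (0.27). Slx4, at 53.4 and 57.1 FPKM (-0.03), is a DNA repair gene of chromosome 16 that the list took in by its symbol. Without Speer, Rik and Gm symbols the list's median was 0.57 over 5 genes, and with no minimum level it was 0.50 over 40. Of all 200 members on the X chromosome 46 (23.0%) were higher and 11 (5.50%) lower (median 0.30). On the autosomes 17.6% were higher and 12.5% lower (median -0.02). Of 6 members on the Y chromosome 0 were higher and 0 lower (median 0.51).

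Zinc finger genes, most of which encode DNA-binding repressors, leaned the same way. Of 134 Zfp members 33 (24.6%) were higher and 7 (5.22%) lower, against 17.8% and 12.3% of all members, and the median was 0.46. Zfp72 stood at 8.51 and 65.9 FPKM (2.69) and Zfp217 at 78.9 and 175 FPKM (1.02). Zfp385a, at 7.69 and 2.69 FPKM (-1.36), and Zfp541, a meiotic regulator, at 60.8 and 25.4 FPKM (-1.35), were the lowest. Symbols of less studied genes also held more higher than lower members, with 179 higher and 61 lower of 759 Rik clones, and 79 higher and 27 lower of 225 Gm gene models. Among the 7100 other symbols 1111 (15.6%) were higher and 918 (12.9%) lower.

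Lists of genes of cells between and beside the germ cells lay on the lower side. Leydig cells make testosterone outside the tubules, and of 18 Leydig cell genes 12 were lower and 0 higher (median -1.19). Sertoli cells nurse the germ cells inside the tubules, and of 15 Sertoli cell genes 5 were lower and 0 higher (median -0.93). Peritubular, vascular and blood genes had 3 of 6 lower and 0 higher (median -1.26), and macrophage genes 2 of 4 lower and 0 higher (median -0.94), against 12.3% of all members lower and 17.8% higher. With no minimum level the last 2 medians were -0.35 over 26 genes and -0.22 over 16. Within a bulk library, fewer cells of a type and less RNA per cell cannot be told apart. Supernatant and first pellet are products of the same spin of the same cells, so their ratio does not measure the number of cells of a type.

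Cyp17a1, the steroid hydroxylase and lyase of androgen synthesis, stood at 136 FPKM in the supernatant and 140 in the lysate, against 51.0 in the first pellet and 66.2 in the second, a centred log2 ratio of -1.52. Hsd3b1, the next steroidogenic gene, stood at 14.6 and 2.10 FPKM (-2.45), Gsta4, a glutathione transferase gene, at 27.0 and 2.86 FPKM (-2.98), and Gstm1, another of that class, at 158 and 49.9 FPKM (-1.77). Both pellets were thus below the soluble fractions for Cyp17a1, while Gsta4 was low in the first pellet and at 26.8 FPKM in the second. Insl3, the gene of a peptide hormone of Leydig cells, stood at 53.8 and 64.0 FPKM (0.12), so the group did not differ as a block. Scarb1, a lipoprotein receptor gene, stood at 20.8 and 44.6 FPKM (0.94).

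Ctsl, a lysosomal protease gene of Sertoli cells, stood at 15.6 FPKM in the supernatant and 3.18 FPKM in the first pellet (-2.11), and at 6.68 FPKM in the second. Etd, a testis differentiation gene listed with Sertoli cells, stood at 13.7 and 1.56 FPKM (-2.64), and at 1.52 FPKM in the second pellet. Both genes were lower in either pellet than in the supernatant. Tjp1, a tight junction gene, stood at 14.2 and 25.6 FPKM (0.68), the highest ratio of the Sertoli list. Dcn, which encodes the matrix proteoglycan decorin, stood at 30.1 and 8.69 FPKM (-1.80). The defining markers, members or not, summed to 64.5 FPKM in the supernatant and 22.9 FPKM in the first pellet for 7 Sertoli cell genes, and to 8.18 and 1.08 FPKM for 3 macrophage genes, with Cd68 and C1qa listed at 0 in the first pellet. The 4 peritubular and vascular markers went the other way, from 13.5 to 18.7 FPKM.

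Among members outside the small RNA genes with at least 1 FPKM in both libraries, the lowest ratios beside those of Gsta4, Etd and Hsd3b1 belonged to Lcn2, Krtcap2, Msmp, 2310045N01Rik, Mgp, Vpreb3 and Max. Lcn2, which encodes the siderophore-binding lipocalin, stood at 56.1 and 6.63 FPKM (-3.02), and Krtcap2, a subunit of the oligosaccharyltransferase, at 16.7 and 1.37 FPKM (-3.02). Mgp, a matrix protein gene that inhibits calcification, stood at 10.1 and 1.09 FPKM (-2.53). In the second pellet Lcn2 stood at 41.5, Krtcap2 at 24.1 and Mgp at 26.5 FPKM, so their low values were seen in the first pellet but not in the fraction made from it.

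Cytosolic ribosomal protein genes formed the largest group on the lower side. Of 65 members 31 (47.7%) were lower and 0 higher, against 12.3% and 17.8% of all members, and the median was -0.94, with 57 of 65 below the median member. Without centring 24 were lower and with all members but small RNA genes scaled to 1 sum, which counts the locus AF357355, 35 were. Their summed level was 5244 FPKM in the supernatant and 2863 FPKM in the first pellet. Rps20 (chr4:3761620-3762747, mm9), the most abundant, stood at 523 and 259 FPKM (-1.14), with 553 FPKM in the lysate and 296 FPKM in the second pellet. Rpl28 stood at 53.8 and 12.3 FPKM (-2.16), and Rps3, at 7.93 and 13.2 FPKM (0.54), had the highest ratio. Rpl26 was listed at 12.5 FPKM in the supernatant and 9.95e-04 FPKM in the first pellet, a value near 0 that may be a failed estimate. Of coding members with transcripts of at most 1000 bases, 17 of 37 ribosomal protein genes (45.9%) were lower, as were 96 of 618 others (15.5%), and of the 111 members outside the small RNA genes with transcripts of at most 500 bases 31.5% were lower. The part of transcript length in these counts was not tested.

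Many ribosomal protein genes and noncoding snoRNA hosts begin transcription at a tract of pyrimidines, and the start of the transcript is therefore shown for Gas5, at the upper end, and for Rpl28 and Rpl12, at the lower end of the ratios. The windows hold 20 bases before and 20 from the annotated start on, read from RefSeq promoters on GRCm38.p6, with CTTTC in capitals. Only starts that hold these letters were shown, and in Rpl28 and Rpl12 the letters fall after the annotated start. Gas5 lies at chr1:161035146-161035185, Rpl28 at chr7:4792945-4792984 and Rpl12 at chr2:32961692-32961731, all on the plus strand. Rpl12 was chosen after its values were seen, 39.9 FPKM in the supernatant and 9.46 FPKM in the first pellet (-2.09).
Gas5: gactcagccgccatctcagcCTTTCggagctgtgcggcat
Rpl28: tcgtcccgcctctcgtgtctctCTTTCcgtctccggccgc
Rpl12: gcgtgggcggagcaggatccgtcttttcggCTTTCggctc

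The letters CTTTC were searched on the transcribed strand within 30 bases on either side of the start. They occurred in 20 of 51 ribosomal protein windows (39.2%), in 7.91% of all members' windows and in 7.93% of all promoters of the table, and GAAAG, the same letters on the other strand, in 7.42% of all promoters. The windows of higher members held CTTTC in 6.86% and those of lower members in 8.29%. Ribosomal protein genes with the letters were lower in 9 of 20 cases and those without them in 15 of 31. The letters were thus more common among ribosomal protein genes than among all members, and lower genes were found with and without them. Nor did they go with 1 direction, as Gas5 holds them too.

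Genes of the translation machinery and of the secretory pathway also lay below the median. Of 55 translation factor genes 14 (25.5%) were lower and 2 higher (median -0.54), against 12.3% and 17.8% of all members. Eif3h, a subunit of initiation factor 3, stood at 64.4 and 20.6 FPKM (-1.72), and Pabpc1, the poly(A)-binding protein gene, at 560 and 286 FPKM (-1.09). Eif1a, an initiation factor gene, was an exception at 18.8 and 78.9 FPKM (1.89), with q = 0.0117 in the authors' deposited table. Of 51 genes of protein entry, folding and glycosylation in the endoplasmic reticulum 15 (29.4%) were lower and 2 higher (median -0.52). Clgn, a chaperone needed by sperm surface proteins, stood at 557 and 172 FPKM (-1.81), and Tram1, of the translocon, at 51.3 and 17.6 FPKM (-1.61). Dad1, an oligosaccharyltransferase subunit gene, stood at 54.8 and 198 FPKM (1.71). Proteasome genes had 4 of 39 lower (10.3%, under the share of all members) and 3 higher (median -0.47), with Psmc3 at 396 and 169 FPKM (-1.34) and Psmb5 at 11.0 and 37.4 FPKM (1.56).

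Nuclear genes for mitochondrial proteins split. Of 80 respiratory chain genes 22 (27.5%) were lower and 5 (6.25%) higher (median -0.49), and of 58 mitochondrial ribosomal protein genes 11 were lower and 7 higher (median -0.37), where all members gave 12.3% and 17.8%. Cox8c, a testis form of a cytochrome oxidase subunit, stood at 181 FPKM in the supernatant, 624 in the first pellet and 577 in the second pellet (1.66). Uqcrfs1, the Rieske protein gene, stood at 28.1 and 125 FPKM (1.99), with q = 0.0211 in the authors' deposited table. Ndufc2, of complex I, stood at 22.4 and 5.41 FPKM (-1.99). Mrps12, at 5.24 and 40.3 FPKM (2.61), and Mrpl24, at 63.7 and 19.3 FPKM (-1.80), marked the ends of the mitochondrial ribosome list. Ndufs5 was listed at 12.4 FPKM in the supernatant and near 0 in the lysate and both pellets, and its ratio of -3.86 rests on that 1 value.

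**Figure D3:**
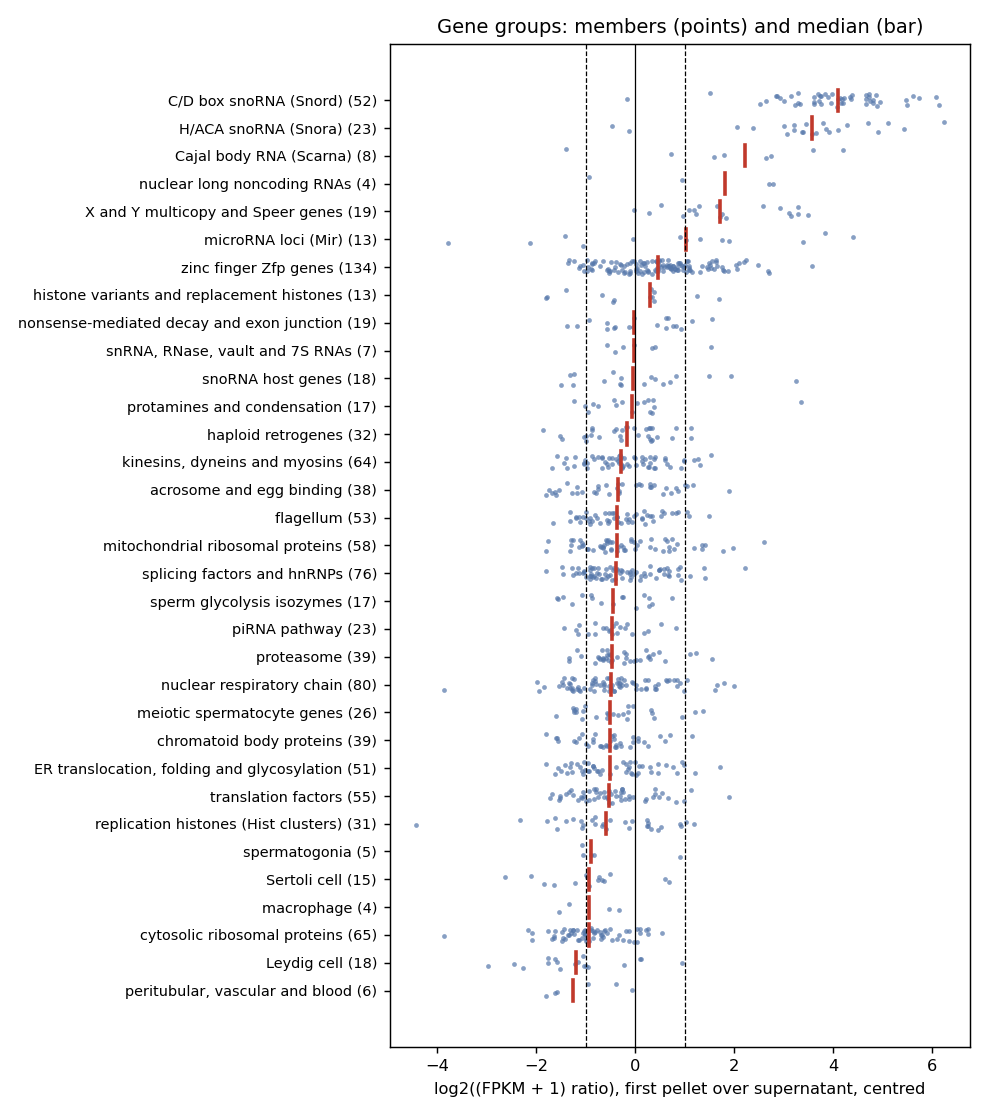
Centred log2 ratio (horizontal) of the members of each gene group (blue points, spread vertically for sight only) with the group's median (red bar) and number of members in brackets, ordered by median. Dashed lines mark 2-fold. The snoRNA groups stand to the right with medians of 4.10 and 3.58, and Leydig cell and ribosomal protein genes to the left with medians of -1.19 and -0.94.

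Messages of chromatoid body proteins were more often lower than higher in the first pellet. Of 39 members 9 (23.1%) were lower and 1 higher (median -0.51), and of 23 piRNA pathway genes 4 (17.4%) were lower and 0 higher (median -0.47). Of all members 12.3% were lower and 17.8% higher, so the share of lower piRNA pathway genes was near that of all members. Ddx4, the gene of MVH, stood at 298 FPKM in the supernatant and 215 in the first pellet (-0.59), and at 282 in the lysate and 215 in the second pellet. Piwil1, which encodes MIWI, stood at 118 and 55.7 FPKM (-1.19), and Tdrd6, a tudor scaffold gene of the granule, at 197 and 96.8 FPKM (-1.14). Ybx1 and Ybx2 encode cold shock proteins that package stored mRNA. Ybx1 stood at 351 and 109 FPKM (-1.80), with q = 0.0471 in the authors' deposited table, and Ybx2 at 1107 and 394 FPKM (-1.61). Upf2, a nonsense-mediated decay factor gene, was the higher one at 36.3 and 88.3 FPKM (1.14). These values are mRNA levels of the proteins' genes and do not measure the proteins. Of 19 genes of nonsense-mediated decay and the exon junction 2 were higher and 2 lower (median -0.03, or 0.09 without centring).

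Abundant messages of haploid spermatids lay near or below the median. Of 17 genes of protamines and chromatin condensation 1 was higher and 2 lower (median -0.06, or 0.06 without centring). Tnp1, a transition protein gene, stood at 14397 and 7692 FPKM (-1.03), Prm1 at 13466 and 8650.3 FPKM (-0.76) and Prm2, the other protamine gene, at 7172 and 4039.9 FPKM (-0.95). Tnp2, next to the protamine genes on chromosome 16, stood at 4210.2 and 4385 FPKM (-0.06), so the replacement proteins' messages were not shifted by 1 amount. Gm4922, the higher one of the list, stood at 8.91 and 109 FPKM (3.36).

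Acrosome and egg binding genes had 11 of 38 (28.9%) lower and 4 higher (median -0.34), against 12.3% and 17.8% of all members. Acr, the gene of the acrosomal protease acrosin, stood at 171 and 202 FPKM (0.11), and Pick1, needed for acrosome formation, at 32.1 and 132 FPKM (1.88), with q = 1.54e-04 in the authors' deposited table. Crisp2, a secretory protein gene of sperm, stood at 1679 and 628 FPKM (-1.54). Flagellar genes had 8 of 53 (15.1%) lower, near the share of all members, and 3 higher (median -0.36), with Rsph1, of the radial spokes, at 855 and 294 FPKM (-1.66) and Catsper4, of the sperm calcium channel, at 53.7 and 167 FPKM (2.83-fold over the median). The authors' deposited table gave Catsper4 q = 0.00177. Sperm glycolysis genes had 5 of 17 (29.4%) lower and 0 higher (median -0.44), with Ldhc, the lactate dehydrogenase of sperm, at 3338 and 1505 FPKM (-1.27), Pgam2 at 610.3 and 221 FPKM (-1.58) and Gapdhs at 530.4 and 356 FPKM (-0.69). A list named for haploid retrogenes (inserted copies of mRNAs, expressed after meiosis) had 4 of 32 (12.5%) lower and 2 higher (median -0.18). It also holds genes of many exons, such as Phf7 and Tcp10b with 11 each, so it is not made of such copies alone. Kinesin, dynein and myosin genes had 10 of 64 (15.6%) lower and 4 higher (median -0.28). The shares of lower genes in these 2 lists were about that of all members. Actb, the beta-actin gene, stood at 219.6 and 162 FPKM (-0.55).

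Earlier germ cells gave similar values. Of 26 meiotic genes 9 (34.6%) were lower and 2 higher (median -0.51), against 12.3% and 17.8% of all members. Sycp2, of the synaptonemal complex, stood at 85.5 and 38.4 FPKM (-1.26), and Hspa2, a heat shock protein gene of spermatocytes, at 568 and 263 FPKM (-1.23). Tex15, a meiotic recombination gene, stood at 19.7 and 51.2 FPKM (1.22). Of 5 spermatogonial genes 2 were lower and 0 higher (median -0.90), or 0 lower and 1 higher without centring. Dazl, an RNA-binding translation regulator of germ cells, stood at 24.7 and 12.3 FPKM (-1.07).

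Histone genes also differed among themselves. Of 31 genes of the replication histone clusters, whose mRNAs mostly lack a poly(A) tail, 10 (32.3%) were lower and 2 higher (median -0.60), where all members gave 12.3% and 17.8%. Hist1h2ao was listed at 18.8 FPKM in the supernatant and 8.61e-06 FPKM in the first pellet, a value near 0 that may be a failed estimate (-4.43). Hist1h2ba, the testis H2B gene, stood at 844 and 348 FPKM (-1.40), and Hist2h2aa1 at 59.5 and 122 FPKM (0.90). Hist1h1t, the testis linker histone gene, stood at 99.1 and 30.4 FPKM (-1.79), while Hils1, a linker histone gene of late spermatids, stood at 448 and 638 FPKM (0.39). Of 13 variant and replacement histone genes 2 were higher and 3 lower (median 0.30). Only 4 replication histone members have loci of 1000 bases or more, and their median was 0.19.

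Splicing factor and hnRNP genes, whose proteins act in the nucleus, had 12 of 76 (15.8%) lower and 4 higher (median -0.40), where 12.3% of all members were lower and 17.8% higher. Clk4, a kinase of splicing regulators, stood at 62.7 and 321 FPKM (2.22), with q = 4.86e-04 in the authors' deposited table. Hnrnph1, at 192 and 383 FPKM (0.87), was also above the median, while Sf3a3, of the spliceosome, stood at 42.9 and 12.7 FPKM (-1.80) and Hnrpdl at 26.7 and 9.84 FPKM (-1.47).

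Among the 12 members that the authors' deposited table calls lower were Tcp10a, Lrrcc1, Pebp4, Smarcc2, Ybx1, Dis3l, Morf4l1, Ccdc136, Ralgds, Ralgps2 and 8430427H17Rik, and all 12 were also lower by the 2-fold rule. Tcp10a, a testis gene of the mouse t complex, stood at 264 and 68.6 FPKM (-2.05), with q = 0.00148 in the authors' deposited table. Smarcc2, a subunit of the BAF chromatin remodelling complex, stood at 63.2 and 18.4 FPKM (-1.85). Ccdc136 stood at 576 and 229 FPKM (-1.45). Apart from Ybx1 these genes were named because the authors' deposited table calls them. None of the ribosomal protein, Leydig or Sertoli cell genes is among the 12, and none has q under 0.05 in the authors' deposited table.

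Outside the small RNA genes, members with 2 exons were higher in 30.3% and lower in 7.71% of 402 cases. Of 1080 members with more than 20 exons 121 were higher and 140 lower. The 379 members with 1 exon broke this order, with 20.8% higher and 16.1% lower. By transcript length, 31.5% of 111 members of at most 500 bases were lower, against 9.54% of 1457 members above 5000 bases. Across the members outside the small RNA genes matched to a transcript, Spearman's rho of the centred ratio was -0.13 with exon number, 0.01 with transcript length and -0.07 with GC content. All 3 were small, and rho does not capture differences that fail to run in 1 direction. These are descriptions across genes, which are not independent replicates. The most abundant members leaned to the supernatant: of 22 members outside the small RNA genes with a mean above 1000 FPKM, 10 were lower and 2 higher, with a median of -0.96. The 2 higher ones were AF357355, with no transcript matched, and Gm12238, whose matched transcript has 124 bases.

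A separate pair of libraries, the second pellet and the lysate, gave a similar order of members. Across all 8187 members Spearman's rho between the centred log2 ratios of the 2 pairs was 0.75. The second pellet was made from first pellet material and the lysate holds the material of the supernatant, and all values share 1 scaling, so the pairs are not independent. Of the 1455 members higher in the first pellet 766 (52.6%) were also higher in the second pellet against lysate (11.5% of all members), which is 81.5% of the 940 higher there, and 18 were lower. Of the 1011 lower members 252 (24.9%) were lower in the second pellet (6.23% of all members), or 49.4% of the 510 lower there. The lysate lay between supernatant and first pellet for 74.0% of the higher members, for 66.5% of the lower ones and for 45.7% of the others. It was nearer the supernatant for 98.2%, 98.4% and 80.6% of them.

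**Figure D4:**
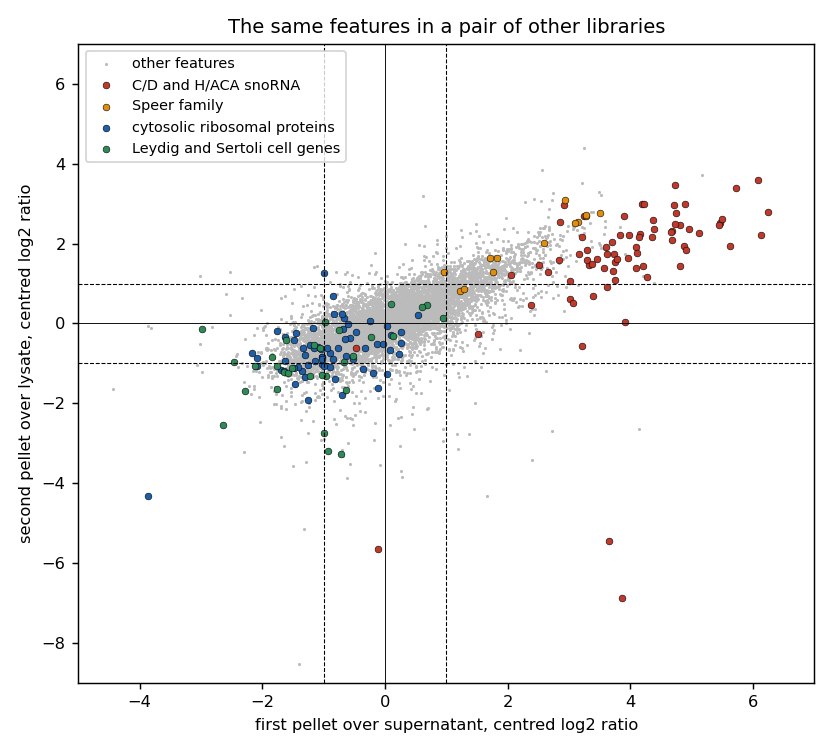
Centred log2 ratio of the second pellet over the lysate (vertical) against that of the first pellet over the supernatant (horizontal), 1 point per member, with 2 members outside the axes. Dashed lines mark 2-fold. Speer genes and most snoRNAs lie at the upper right, and ribosomal protein, Leydig and Sertoli cell genes mostly at the lower left.

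Among the gene groups, the snoRNAs and the ribosomal protein genes kept their sides in that pair. The C/D list had a median of 2.16 in the second pellet against lysate and the H/ACA list one of 1.22. The Leydig list had 9 of 18 lower there, and the ribosomal protein list 20 of 65 lower and 1 higher.

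**Figure D5:**
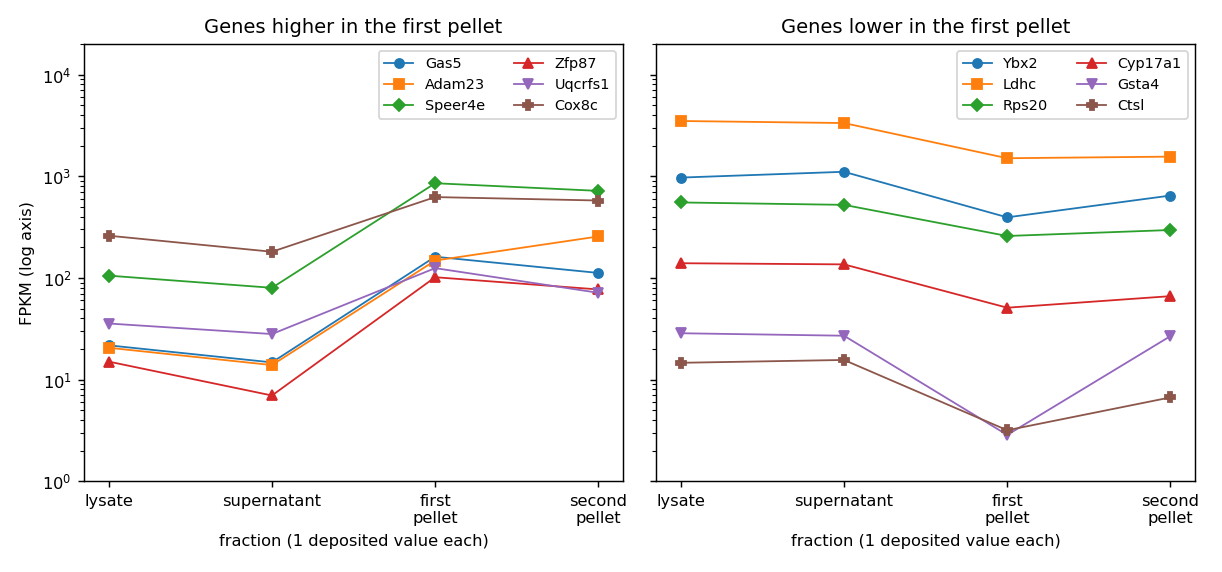
FPKM (log axis) in the lysate, the supernatant and both pellets for 6 genes that were higher in the first pellet (left) and 6 that were lower (right), 1 deposited value per fraction. On the left lysate and supernatant are low and both pellets high, and on the right Gsta4 and Ctsl are low in the first pellet and at 26.8 and 6.68 FPKM in the second.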

How the data were processed

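RNA was sequenced by the authors from C57BL/6 testis fractions, 1 library each for supernatant and first pellet. TopHat and Cuffdiff on mm9 are named in the submitters' processing notes. Their versions, read filters and strand handling, and read totals, were not given in the sources used here. Overlapping or antisense genes therefore cannot be told apart. The deposited joint table gives FPKM per condition, per the file headers, and the authors' p-values and q-values of each pair. Where the locus of a feature is a merged cluster, its span is not the gene's length. Coordinates are mm9, except those of sequences.

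The log2 ratio of (FPKM + 1) understates differences of low genes. It was computed in Python 3.11.15 with pandas 2.3.3, and the counting script was checked on simulated data. Of 8187 members 8084 (98.7%) were matched by symbol to GENCODE M21 transcripts, 853 of them through an older symbol in RefSeq. The members and the 34 gene lists were chosen with earlier results of these data known. The list of mitochondrially encoded genes had no member.

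Named genes were, by rule, the 10 largest and 10 smallest ratios outside small RNA genes with at least 1 FPKM in both libraries, the 3 largest and 3 smallest among small RNA genes, the 2 highest, 2 lowest and 2 most abundant of each list, and a fixed set of known genes. Alternatives changed the pseudocount, the minimum level, the centring, the scaling, the fold and the q threshold, and left out short loci or kept features at 0. The lists of cell types rest on known markers, and no cells were counted. Values of the lysate and the second pellet were used only beside these members. The value of the MVH immunoprecipitate was not analysed here, as it stands for 3 libraries and matches no single one.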

Additional observations from a re-analysis of the deposited data

How the results depend on the processing

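With members of at least 20 FPKM, 777 were higher and 498 lower. At 1.5-fold 2347 were higher and 2165 lower, and at 4-fold 360 and 50. At q under 0.01 the authors' deposited table calls 169 members in either direction. Without centring 1667 were higher and 746 lower, so that 69.1% of the calls were higher, against 59.0% with it. Scaling the members outside small RNA genes to 1 sum gave 1252 and 1264 (49.8% higher). That sum counts AF357355, which gave 103366 of 497049 FPKM in the first pellet. The median of the nuclear long noncoding RNA list was -0.070 with a minimum of 1 FPKM (9 genes) and -0.042 with none (11 genes). The microRNA median was -5.36 with features at 0 kept (50 loci), and the replication histone median 0.19 without loci under 1000 bases (4 genes). The cause was not tested beyond the genes that each setting adds or drops. Of 396 recomputed list medians 385 moved by less than 1.5-fold, 7 moved further with their sign kept, and 4 were counted as changing sign. Changes of sign were counted only for lists whose median lay away from 0. Medians near 0 among the 385 could change sign, as that of the nonsense-mediated decay list did, from -0.03 to 0.09 without centring. No named gene past 2-fold changed sign, and 19 of 2238 recomputed values moved by 1.5-fold or more, all of them with a smaller added constant or none. Leaving out the members without a complete test by the authors, and leaving out Speer, Rik and Gm symbols, were chosen after seeing the data. No paired analysis was possible because each product has 1 library, and for the same reason no replicate could be left out.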

Other observations

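Features without a gene symbol were outside the members. Of 197 piRNA clusters of the joint table, which are loci that give rise to piRNAs, 176 passed the same rule. Against the same median 8 of them (4.55%) were higher and 6 (3.41%) lower in the first pellet, where all members gave 17.8% and 12.3%. The median centred log2 ratio of the clusters was -0.31. The summed level of the clusters was 60429 FPKM in the supernatant and 73920 FPKM in the first pellet. Most of both sums came from 1 cluster, piRNA_cluster_177, at 54296 and 66701 FPKM (0.18). Of 4922 assembled transcripts without a symbol 4485 passed, with 894 higher (19.9%), 1424 lower (31.8%) and a median of -0.46. The authors' deposited table calls 58 of these transcripts higher and 1 lower, and of the piRNA clusters it calls only piRNA_cluster_177 higher. Among the members, 53 annotated as intergenic long noncoding RNA had 13 higher and 1 lower, with a median of 0.21, and 62 processed pseudogenes had 13 higher and 16 lower, with a median of -0.16.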
